A study of Mus musculus with 3 samples.

Results

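The members described here are the 1009 DMC1 hotspots, called sites below, that lie within 5 Mb of the last DMC1 site of each of the 19 mouse autosomes and that were assigned to the CAST or the humanized (HUM) PRDM9 allele. They were chosen by position and allele alone, out of 24586 sites in all and 21653 autosomal CAST and HUM sites, and comprised 571 CAST and 438 HUM sites. The other 20644 autosomal CAST and HUM sites are called the rest. The window was measured back from the last DMC1 site of any class, not from the end of the chromosome's sequence. Its limit fell between a CAST site 8.52 kb from Exog, a mitochondrial nuclease gene (chromosome 9, 119474042; 4998 kb before the last site; DMC1 103, H3K4me3 17.9), and a HUM site in Camta1, a calmodulin-binding transcription activator gene (chromosome 4, 151356000; 5001 kb; DMC1 72.2, H3K4me3 14.9).

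The labels describe whole testis of male F1 mice of C57BL/6J (B6) by CAST/EiJ (CAST), which carried HUM and CAST alleles of Prdm9. The DMC1 library was made from a male of 10 weeks, and the H3K4me3 and MNase libraries from an adult male, with chromatin cut by micrococcal nuclease, at 1 library for each of the 3 assays. The deposited table credits its H3K4me3 reads to an earlier study, and whether these are the reads of this H3K4me3 library was not settled. The distal ends and the rest are regions of the same data and do not differ in genotype, treatment or age, and no difference between them has a replicate check. Whole testis is a mixture of germ and somatic cells, and more cells with a break at a site cannot be told apart from longer persistence of DMC1 there.

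In meiotic cells PRDM9 recognises DNA motifs through its zinc fingers and places H3K4me3 on nearby nucleosomes. Double-strand breaks then form at a subset of the marked places, and the recombinase DMC1 coats the single-stranded DNA at a break until it has paired with a homologue, so that DMC1 reports both how often a site breaks and how long the break stays unrepaired. Mouse chromosomes have their centromere at the low-coordinate end, which makes the high-coordinate end the far telomere, where crossovers of male mice are concentrated. The distal ends of autosomes 4, 9 and 13 carry clusters of a minisatellite, mo-2, at which REC114, MEI4, IHO1 and ANKRD31, proteins that prepare break formation, gather in mouse spermatocytes. These 3 autosomes are given separately below. They and the last 1 Mb were singled out after their values were seen.

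Sequence around a break centre was read only for the members that fall in a promoter window, taken as 250 bases before to 50 bases after a RefSeq gene start (GRCm38.p6, the same build as mm10). Member centres lay in 7 such windows, which belong to 6 genes and include a pair of overlapping windows of Gm29943. The sequences of 4 windows are given 5′ to 3′ because they hold the 2 strongest of these members, both CAST sites, and 2 HUM sites of low DMC1 and high H3K4me3. Capitals mark the bases around the DMC1 centre in Gm32200, Gm31012 and Irf7, and in Gm29943 the match to the degenerate hotspot motif of human PRDM9, which is 171 bases from the DMC1 centre.
Gm32200 (chr1:191464999-191465298, minus strand): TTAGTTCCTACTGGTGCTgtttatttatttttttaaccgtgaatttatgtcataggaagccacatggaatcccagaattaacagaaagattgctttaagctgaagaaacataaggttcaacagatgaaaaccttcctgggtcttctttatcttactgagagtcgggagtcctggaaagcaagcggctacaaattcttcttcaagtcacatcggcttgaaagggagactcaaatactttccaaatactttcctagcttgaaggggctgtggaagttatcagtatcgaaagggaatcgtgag
Gm31012 (chr16:93929092-93929391, plus strand): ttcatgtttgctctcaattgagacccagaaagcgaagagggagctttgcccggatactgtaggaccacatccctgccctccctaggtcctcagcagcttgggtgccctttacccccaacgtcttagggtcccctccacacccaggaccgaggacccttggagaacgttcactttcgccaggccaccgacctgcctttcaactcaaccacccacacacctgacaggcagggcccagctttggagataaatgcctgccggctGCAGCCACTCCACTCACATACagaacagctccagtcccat
Gm29943 (chr2:180293508-180293807, plus strand): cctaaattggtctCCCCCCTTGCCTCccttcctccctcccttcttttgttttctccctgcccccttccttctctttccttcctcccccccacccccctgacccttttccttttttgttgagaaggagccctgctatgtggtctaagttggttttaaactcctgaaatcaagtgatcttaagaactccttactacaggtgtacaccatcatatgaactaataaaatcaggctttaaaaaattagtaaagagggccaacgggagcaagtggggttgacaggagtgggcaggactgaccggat
Irf7 (chr7:141266375-141266674, minus strand): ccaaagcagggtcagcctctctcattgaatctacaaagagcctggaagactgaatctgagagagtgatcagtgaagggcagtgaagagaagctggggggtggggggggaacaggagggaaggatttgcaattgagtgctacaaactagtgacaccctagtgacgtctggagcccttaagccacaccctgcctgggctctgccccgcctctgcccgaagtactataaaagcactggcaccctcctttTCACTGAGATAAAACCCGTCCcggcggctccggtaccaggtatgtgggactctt

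The Gm32200 site (CAST; centre 191465291) was the strongest member of autosome 1, with DMC1 539, H3K4me3 25.2 and 0.988 of its DMC1 on the B6 homologue. The Gm31012 site (CAST; 93929362) had DMC1 301, H3K4me3 14.1 and a B6 share of 0.803. The Gm29943 site (HUM; 180293704) had DMC1 24.5 against H3K4me3 31.1, and that in Irf7, an interferon-response transcription factor gene (HUM; 141266418), had DMC1 44.6 against H3K4me3 37.6. Both of these HUM sites overlapped an H3K4me3 peak that the authors marked as independent of PRDM9, whereas neither of these CAST sites did. Of the members in the windows not printed, the CAST site of Erich3 (DMC1 48.5, H3K4me3 123) and the HUM site of Gm35582 (DMC1 23.4, H3K4me3 22.2) also overlapped such a peak. The human motif, of 13 letters and searched on both strands, was found in the windows of 1 of the 6 genes. It occurred in 6.96% of the 1869 windows of gene starts in the distal ends, in 6.31% of those in the rest and in 6.35% of all 31396 autosomal windows. None of these windows lay on autosome 18. A match describes letters, not binding.

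How densely the ends were used was asked first. The distal ends held 10.6 CAST and HUM sites per Mb and the rest held 8.997 per Mb, a ratio of 1.18. The density was higher in the distal end on 12 of 19 autosomes. Autosome 4 stood highest with 113 members, or 22.6 per Mb, 2.58 times the density of its own rest, and autosome 9 followed with 83 members (16.6 per Mb). Autosome 17 stood lowest with 17 members (3.40 per Mb), 0.336 times its own rest. The difference in density depended on the width, since it turned to 0.971 with a window of 2.5 Mb and was 1.32 with 10 Mb. Distances were also taken from each site to the preceding CAST or HUM site of its autosome. Their median was 56.1 kb in the distal ends and 62.1 kb in the rest. In the last 1 Mb the density was 12.7 sites per Mb on autosomes 4, 9 and 13 and 5.69 on the 16 other autosomes, in each case below the following 4 steps of 1 Mb (13 to 19.3 and 8.31 to 12.9).

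The members were close to the rest in allele and gene context. CAST sites made up 56.6% of members (exact Clopper-Pearson 95% interval 53.5% to 59.7%) and 57.2% of the rest. In the last 1 Mb they made up 66.7% of 129 sites (57.8% to 74.7%). PRDM9-independent H3K4me3 overlapped 79 members, or 7.83% (6.25% to 9.66%), against 7.56% of the rest. Of the members, 54.7% lay inside a protein-coding gene, against 54.5% of the rest. By allele the sign differed, with 56.9% of CAST members against 52.3% in the rest and 51.8% of HUM members against 57.3%. Gene starts were nearer to members, at a median of 22.01 kb against 30.1 kb in the rest, and 25 of 979 members (2.55%) lay within 1 kb of one, against 357 of 19789 sites in the rest (1.80%). Members of autosome 18 were not used in the distances. All intervals cover counting error only.

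Averaged over the whole 5 Mb, both marks were similar to the rest. The median DMC1 signal, an intensity in the authors' units, was 63.0 at members (quartiles 28.1 and 145) and 66.4 in the rest (28.3 and 178). The median H3K4me3 enrichment, also in the authors' units, was 12.9 (6.54 and 24.7) at members and 11.8 (6.41 and 22.8) in the rest. On the log2 scale the difference was -0.08 in DMC1, with 8 autosomes higher and 11 lower, and 0.12 in H3K4me3, with 13 of 19 higher. DMC1 per H3K4me3, which has no absolute meaning and is compared only between sites, had a median of 5.66 at members and 6.26 in the rest, a log2 difference of -0.15. It was lower in the distal end on 14 of 19 autosomes, with single values from -0.97 on autosome 1 to 0.58 on autosome 9. With a window of 10 Mb all 3 log2 differences changed sign, to 0.02 in DMC1, -0.05 in H3K4me3 and 0.09 in DMC1 per H3K4me3. With 2.5 Mb DMC1 per H3K4me3 differed by -0.41, and without autosome 9 by -0.25. Both alleles had shifts of the same sign. CAST members had a median DMC1 of 70.7 against 83.2 at CAST sites of the rest, and HUM members 49.6 against 52.1. Median H3K4me3 was 13.97 at CAST members against 13.2 in the rest, and 11.6 at HUM members against 10.48.

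These averages joined opposite profiles. Going inward from the last site in steps of 1 Mb, the median H3K4me3 on the 16 other autosomes was 24.7, 15.1, 16.3, 13.003 and 10.2. On autosomes 4, 9 and 13 it was 3.45, 6.03, 7.88, 11.3 and 13.4. The median log2 DMC1 per H3K4me3 ran the other way, with 1.08, 1.87, 2.45, 2.42 and 2.84 on the 16 autosomes and 4.30, 3.42, 2.83, 2.69 and 2.24 on the 3. The sets lay furthest apart in the outermost 1 Mb and crossed inside the 5 Mb window. All these medians are of places called as DMC1 sites. H3K4me3 of the same regions away from called sites was not read. The part of DMC1 calling in the profiles was not tested.

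**Figure D1:**
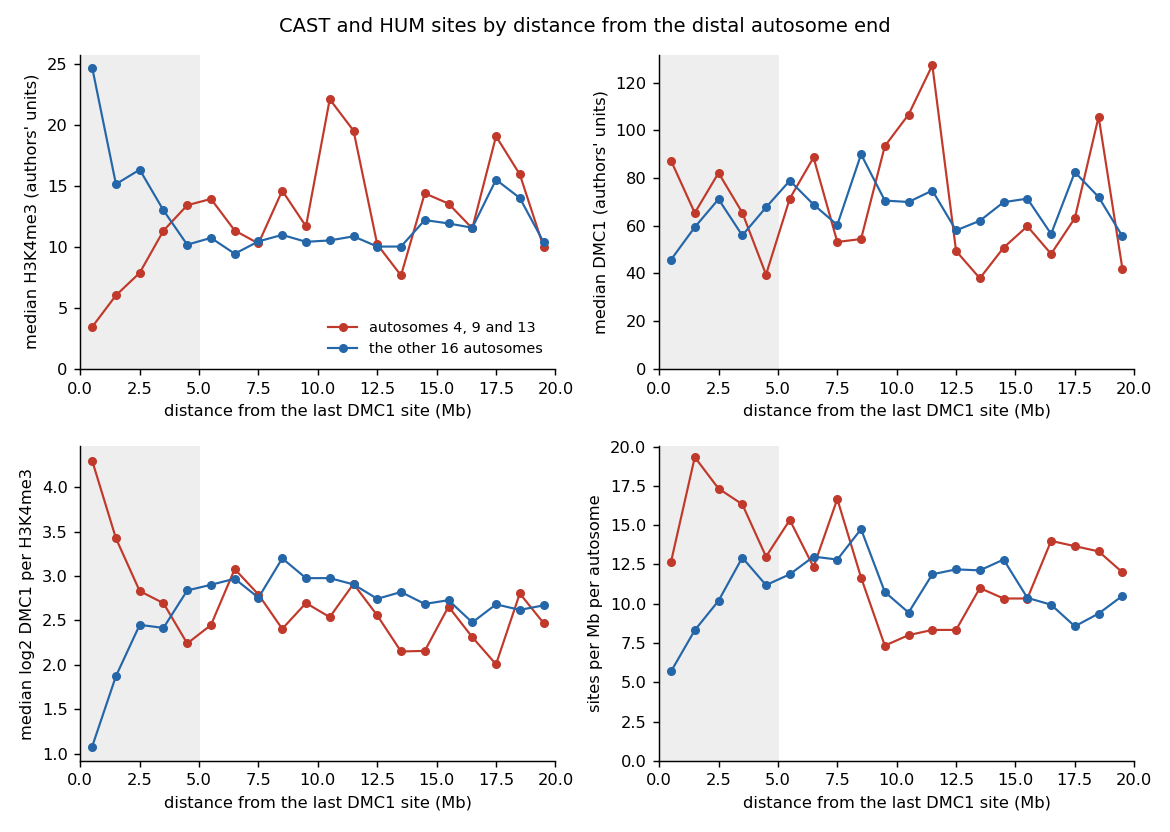
Median H3K4me3, median DMC1, median log2 DMC1 per H3K4me3 and sites per Mb (y axes) in steps of 1 Mb from the last DMC1 site (x axis, Mb), for CAST and HUM sites of autosomes 4, 9 and 13 (red) and the other 16 (blue); the grey band is the 5 Mb window. In the outermost step H3K4me3 was 3.45 on autosomes 4, 9 and 13 and 24.7 on the other 16.

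At the sites called in the outermost 1 Mb of the 16 other autosomes, H3K4me3 was high and DMC1 low. The 91 sites there (64 CAST, 27 HUM) had a median H3K4me3 of 24.7, against 11.9 in the rest of the same autosomes, a log2 difference of 1.06 or 2.08-fold. Their median DMC1 was 45.8 against 67.4, a log2 difference of -0.56 or 1.47-fold lower. DMC1 per H3K4me3 was 2.11 against 6.36, a log2 difference of -1.59 or 3.01-fold lower. The median ratio was below that of the rest on 16 of 16 autosomes, from -2.41 on autosome 16 to -0.41 on autosome 11. H3K4me3 was above the rest on 16 of 16 and DMC1 below it on 11 of 16. Taken singly, 85 of the 91 sites lay under the median ratio of the rest of all autosomes (6.26), with a range of 0.131 to 23.0. The number of sites behind an autosome's median was small, from 1 on autosome 14 to 10 on autosomes 11 and 15. Leaving out autosome 10 gave a log2 DMC1 difference of -0.79 in place of -0.56.

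Autosomes 4, 9 and 13, set apart after their values were seen, showed the reverse. Their 38 sites of the last 1 Mb (22 CAST, 16 HUM; 17, 13 and 8 on the 3 autosomes) had a median H3K4me3 of 3.45, against 11.8 in the rest of the same autosomes, a log2 difference of -1.77 or 3.41-fold lower. Their median DMC1 was 87.3 against 62.3, a log2 difference of 0.49 or 1.40-fold higher. DMC1 per H3K4me3 was 19.7 against 5.80, a log2 difference of 1.76 or 3.39-fold higher, and 34 of 38 sites were above 6.26, with a range of 2.12 to 50.7. The difference was 1.68 on autosome 4, 2.09 on autosome 9 and 1.49 on autosome 13. DMC1 was above the rest on 3 of 3 of these autosomes, with medians of 64.8 against 62.3 on autosome 4, 90.2 against 61.3 on autosome 9 and 195 against 63.03 on autosome 13. H3K4me3 was lower on autosomes 4 (3.36 against 11.2) and 9 (2.42 against 12.7) but not on autosome 13 (12.9 against 12.01). Some H3K4me3 values repeat that of an earlier site, at 382 members (37.9%) and at 41.3% of the rest. The higher DMC1 was lost without sites whose H3K4me3 value repeated that of an earlier site (log2 difference -0.01), while the ratio stayed at 1.65.

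**Figure D2:**
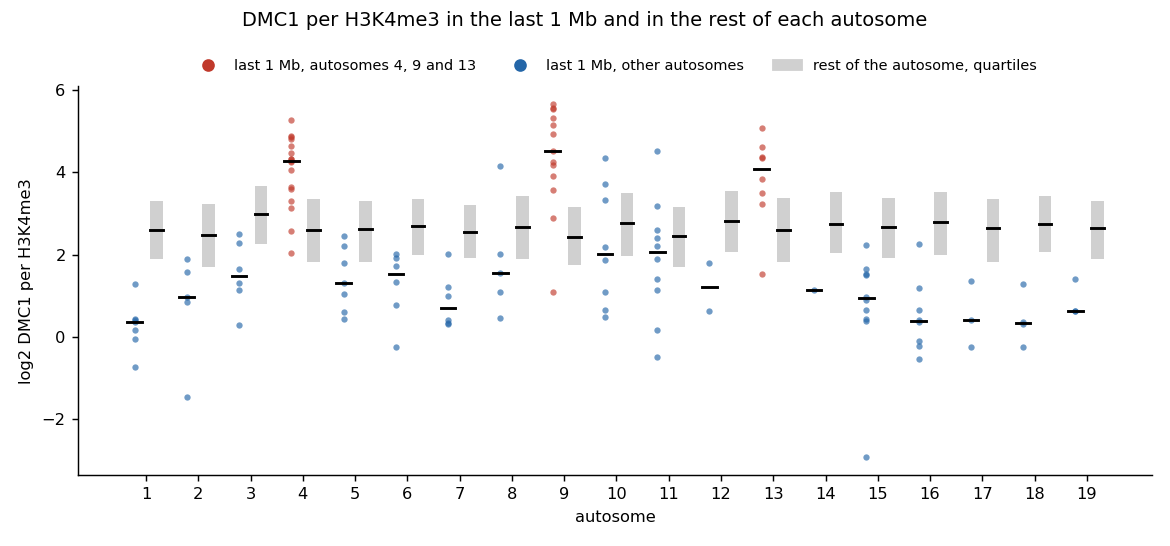
Log2 DMC1 per H3K4me3 (y axis) of each autosome (x axis). Points are the sites of the last 1 Mb (red for autosomes 4, 9 and 13, blue for the others) with their median as a line, and each grey bar to their right spans the quartiles of the rest of that autosome, with its median as a line. The median of the last 1 Mb lies under that of the rest on the 16 other autosomes and above it on 4, 9 and 13.

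Opposite shifts in DMC1 per H3K4me3 were also seen within 3 of 4 ranges of H3K4me3 for each set. Sites within a range still differ in H3K4me3, by which the ratio divides, so the ranges do not match the sets fully. For this, all autosomal CAST and HUM sites were ranked by H3K4me3 and divided at the quartiles (6.42, 11.9 and 22.9). Below the lowest quartile lay 25 of the 38 sites of autosomes 4, 9 and 13 (65.8%), with a median DMC1 of 51.1 against 22.6 at such sites in the rest of these autosomes. Above the highest quartile lay 49 of the 91 sites of the other 16 (53.8%), with a median DMC1 of 79.0 against 254 in the rest of those autosomes. In the remaining range of each set DMC1 per H3K4me3 went the other way, while DMC1 itself kept its direction. Above the highest quartile, 3 sites of autosomes 4, 9 and 13 had a median log2 DMC1 per H3K4me3 of 1.54 against 2.81 in the rest. Their median DMC1 was 268 against 241. Below the lowest quartile, 4 sites of the other 16 had 3.14 against 2.64. PRDM9-independent H3K4me3 overlapped 17 of the 129 sites of the last 1 Mb (13.2%), of which 16 were CAST sites. Without such sites the log2 difference in DMC1 per H3K4me3 was -1.59 on the 16 autosomes (81 sites) and 1.73 on autosomes 4, 9 and 13 (31 sites). UNK sites, a class that the headers do not define and that is not among the members, were 17.7% of the 164 sites of all classes in the last 1 Mb, against 9.05% over the distal ends and 8.06% in the rest. KO sites, another undefined class, were 4 of the 54 sites in the last 1 Mb of autosomes 4, 9 and 13 (7.41%), against 0.327% in the rest of these autosomes, and 1.82% in the last 1 Mb of the other 16. The 12 UNK and 4 KO sites there had median H3K4me3 of 18.4 and 83.2. With UNK and KO sites kept, the log2 differences there were 1.49 in DMC1 per H3K4me3, -1.14 in H3K4me3 in place of -1.77, and 0.15 in DMC1 in place of 0.49.

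**Figure D3:**
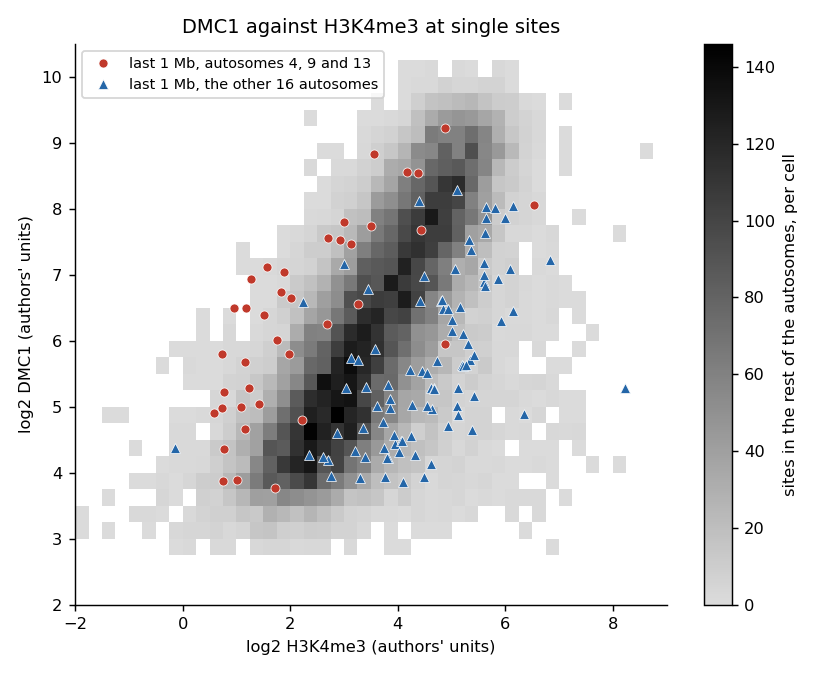
Log2 DMC1 (y axis) against log2 H3K4me3 (x axis), both in the authors' units. Grey cells count the sites of the rest of the autosomes, red circles are the 38 sites of the last 1 Mb of autosomes 4, 9 and 13, and blue triangles the 91 of the other 16. Most circles lie on the low H3K4me3 side of the grey cloud and most triangles on the high side.

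Single sites show the contrast. On autosome 9 a CAST site in Lztfl1, a gene of protein transport in cilia (123701333), had DMC1 123 with H3K4me3 2.42, a ratio of 50.7. A CAST site in Fyco1, an adaptor for autophagosome transport (123836470), had DMC1 139 with H3K4me3 2.95. On autosome 13 a CAST site 214 kb from Fgf10, a growth factor gene of limb and lung (119006940), had DMC1 599.6. Its H3K4me3 of 29.6 was not low, and its ratio was 20.3. A CAST site 11.7 kb from Hmgcs1, an enzyme gene of cholesterol synthesis (119678632), had DMC1 268 and H3K4me3 92.5. Its ratio of 2.90 was under the 6.26 that 34 of the 38 sites exceeded. The lowest ratio of the 38, 2.12, was at a CAST site in Slc6a20b on autosome 9 (123631475). The outermost member of autosome 4, a HUM site in Samd11 (156247258), had DMC1 37.3 with H3K4me3 1.69, and those of autosomes 9, near Ppp2r3d, a phosphatase subunit gene, and 13, near Gm46390, had ratios of 15.1 and 24.4. On the other 16 autosomes the outermost member had a ratio of 1.23 to 4.05 in 15 cases. The exception was the CAST site 56.8 kb from Gm9631 on autosome 11 (121982172), with DMC1 20.8, H3K4me3 0.9005 and a ratio of 23.0. The outermost CAST or HUM site lay 109 kb before the last site on autosome 4, 166 kb on autosome 7 and 635 kb on autosome 19, and was itself the last site on the other autosomes.

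Across members DMC1 followed H3K4me3 less closely than in the rest. The Spearman correlation was 0.617 over the 1009 members and 0.723 over the 20644 other sites, which share both libraries, and Pearson's r of log2 values was 0.603 and 0.707. It was 0.619 against 0.748 at CAST sites and 0.594 against 0.677 at HUM sites. In the last 1 Mb it was 0.337 over all 129 sites. Taken apart, it was 0.758 on autosomes 4, 9 and 13 and 0.592 on the other 16. The centromere ends, the first 5 Mb from the first site (797 sites), had 0.722. The centromere ends had a median DMC1 of 65.2, H3K4me3 of 9.14 and ratio of 7.70. The distal ends of the other 16 autosomes had more H3K4me3 (14.2) and a lower ratio (4.89) at similar DMC1 (61.3). The distal ends of autosomes 4, 9 and 13 were close to the centromere ends, with DMC1 68.01, H3K4me3 8.11 and ratio 7.996.

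The share of DMC1 on the B6 homologue was higher at the distal ends. Its median was 0.55 over the 951 members with a share and 0.469 in the rest, and it was above the rest on 17 of 19 autosomes. The exceptions were autosomes 12 (0.462 against 0.468) and 14 (0.442 against 0.476). At CAST sites it was 0.582 against 0.490 and at HUM sites 0.490 against 0.439. The H3K4me3 B6 share differed less, with 0.540 against 0.522, and was above the rest on 14 of 19 autosomes. Among sites whose H3K4me3 was even between the homologues (share 0.45 to 0.55), the median DMC1 B6 share was 0.511 at 246 members and 0.441 at 5120 sites of the rest, and was higher on 16 of 19 autosomes. By steps of 1 Mb from the last site the median was 0.579, 0.576, 0.576, 0.536 and 0.505, then 0.523, 0.426, 0.463, 0.50, 0.454, 0.499 and 0.502 outside the window. The centromere ends had 0.477. The difference was 0.08 with 5 Mb and 0.04 with 10 Mb. The assignment of reads to homologues is not described in the sources used here, and its part in the result was not tested.

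**Figure D4:**
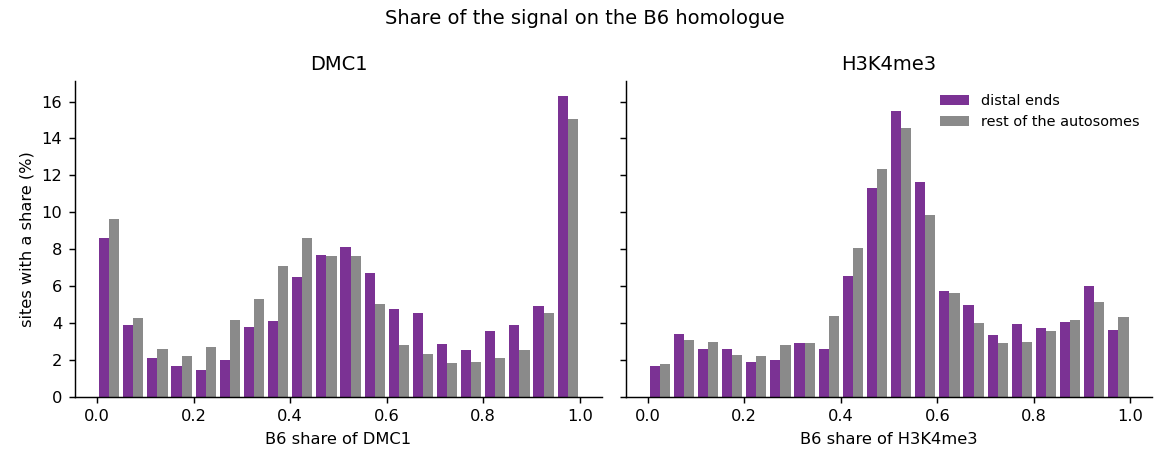
Share of sites (y axis, % of sites with a share) by B6 share (x axis, in steps of 0.05) for DMC1 and H3K4me3, with distal ends in purple and the rest of the autosomes in grey. Above 0.5 the purple DMC1 bars exceed the grey ones, while the H3K4me3 bars of both sets peak near 0.5.

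Sites used on 1 homologue alone were called B6-only with a share over 0.9 and CAST-only with a share under 0.1. For DMC1, 199 members (20.9%) were B6-only, where 19.5% of all autosomal CAST and HUM sites were, and 119 (12.5%) were CAST-only, where 13.8% were. For H3K4me3, 93 members (9.66%) were B6-only, where 9.32% of all were, and 49 (5.09%) were CAST-only, where 4.88% were. These counts are near the background. Sites used on both homologues (share 0.3 to 0.7) made up 46.4% of members and 46.7% of the rest. The excess of B6-only over CAST-only sites was larger at members by 2.84 percentage points, and by 6.55 with limits of 0.2 and 0.8. Over single autosomes it was larger on 12 and smaller on 7, from -7.53 to 14.1 points. By allele, 23.5% of CAST members were B6-only and 7.59% CAST-only, against 21.2% and 10.3% in the rest. Of HUM members, 17.5% were B6-only and 18.98% CAST-only, against 17.1% and 18.8% in the rest. The most B6-biased members above the upper DMC1 quartile were all CAST sites, in Dip2b (chromosome 15, 100149707; share 1), in Ints13, an Integrator subunit gene (chromosome 6, 146571058; share 1), and 22.6 kb from Sec14l1 (chromosome 11, 117092524; 0.998). The most CAST-biased were all HUM sites, in Gnpat, an enzyme gene of ether lipid synthesis (chromosome 8, 124871314; share 0), in Cldn14, a tight-junction claudin gene (chromosome 16, 93941366; 0.00376), and in Zfp407 (chromosome 18, 84475494; 0.00472).

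The B6 shares of DMC1 and H3K4me3 were mostly close to each other. They were apart by over 0.3 at 49 of 940 members (5.21%), where 5.64% of all autosomal sites with both shares were. The share was larger in the last 1 Mb of autosomes 4, 9 and 13, with 10 of 32 sites (31.2%, exact 95% interval 16.1% to 50.01%), against 2 of 84 (2.38%, 0.290% to 8.34%) on the other 16. By allele these were 8 of 19 CAST sites (20.3% to 66.5%) and 2 of 13 HUM sites (1.92% to 45.4%), whose intervals overlap. The median H3K4me3 in the last 1 Mb was 3.45 on autosomes 4, 9 and 13 and 24.7 on the other 16. At the centromere ends, with a median H3K4me3 of 9.14, 9.40% of sites were apart by over 0.3. The part of weak H3K4me3 signal in this difference was not tested. On autosome 4 a CAST site in Atad3a, a mitochondrial ATPase gene (155741612), had DMC1 188 with 0.0658 on the B6 homologue, while its H3K4me3 share was 0.536. A CAST site in Vwa1, an extracellular matrix gene (155768925), had DMC1 214 with 0.969 on the B6 homologue and an H3K4me3 share of 0.540. The CAST site near Ttll10, a tubulin-modifying enzyme gene (156054821), had 0.967 and 0.535. These 3 overlapped PRDM9-independent H3K4me3, and their H3K4me3 signals were 6.47, 11.3 and 4.03. Without sites of such overlap, 6 of 25 (24%) were apart.

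The strongest members reached DMC1 of 931. The leading CAST sites lay in Dop1b, a gene of endosome traffic (chromosome 16, 93759333; DMC1 931, H3K4me3 45.8, B6 share 0.698), and in Sec22c, a vesicle transport gene (chromosome 9, 121699397; 902, 26.6 and 0.990). They were followed by sites in Agap2, a GTPase-activating protein gene (chromosome 10, 127088077; 738, 27.2 and 0.986), in Slc44a5, a choline transporter-like gene (chromosome 3, 154076544; 727, 41.9 and 0.980), and 209 kb from Isl1, a homeobox transcription factor gene (chromosome 13, 116088919; 726, 23.8 and 0.983). Of these 5, the DMC1 of 4 was almost wholly on the B6 homologue. Of the 5 strongest HUM sites, a pair lay in Ski, a repressor of TGF-β signalling (chromosome 4, 155193417 and 155171042; DMC1 689 and 521). The others lay in Fam160b1 (chromosome 19, 57383301; DMC1 610.4), 0.890 kb from Mettl7a1, a methyltransferase-like gene (chromosome 15, 100303255; DMC1 597), and 1.68 kb from Oxgr1, a receptor for oxoglutarate (chromosome 14, 120044118; DMC1 520.0). Their B6 shares were from 0.258 to 0.524. The strongest member of an autosome was weakest on autosome 17, with DMC1 149.6 and H3K4me3 114 at a CAST site 173 kb from Adcyap1, a neuropeptide gene (93379710).

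DMC1 per H3K4me3 varied widely among members at or above the median in the summed ranks of DMC1 and H3K4me3, a limit that leaves out sites of low H3K4me3 such as those in Lztfl1 and Fyco1. Within it, the highest ratios were at CAST sites in Ski (chromosome 4, 155173344; 40.6), in C1qtnf12, a gene for a secreted adipokine (chromosome 4, 155965589; 38.4), and in Sec22c (33.9), all on autosomes 4 and 9. The lowest were in Gtsf2, a paralogue of the piRNA factor gene Gtsf1 (chromosome 15, 103446063; 0.131, with DMC1 39.2 and H3K4me3 299), 631 kb from Lrriq3 (chromosome 3, 155825623; 0.353), and in Odf3, a gene of the sperm tail (chromosome 7, 140848911; 0.357). The sites in C1qtnf12, Gtsf2 and Odf3 overlapped PRDM9-independent H3K4me3.

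Some genes held many members. The most members, 10 each, lay in Atrnl1, an attractin-like gene, Camta1, Ptprn2, a gene of secretory vesicles, St6galnac3, a sialyltransferase gene, and Zfp407, a zinc-finger gene. These are long genes, of 382 kb (Zfp407) to 802 kb (Camta1, part of which lies outside the window). Per Mb of gene length they held from 12.5 (Camta1) to 26.2 (Zfp407) members, against 10.6 over all distal ends. They were picked for their counts. DMC1 within one gene varied widely, from 31.3 to 434 in Zfp407 and from 14.1 to 309 in St6galnac3, and the B6 share from 0.00467 to 1 in St6galnac3. Ski, chosen after its values were seen, held 8 members in 68.5 kb, or 117 per Mb. The sites in Ski had DMC1 of 21.8 to 689, a median H3K4me3 of 4.55 and a median ratio of 17.6, and lay 1142 to 1201 kb before the last site of autosome 4.

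The distal 5 Mb windows held 1513 of the 25748 autosomal genes with a RefSeq start used here, none of them on autosome 18. Some genes of meiosis itself lie in these windows. Of 36 genes of break formation and repair, 2 did, and a member lay in or within 5 kb of 1 of them. It was a weak CAST site in Msh4, which stabilises crossover intermediates (chromosome 3, 153896072; DMC1 15.8, H3K4me3 2.75), whereas Brca2, which loads DMC1 onto single-stranded DNA, had 0. Of 15 genes of the chromosome axis and synapsis 2 lay in the windows. Syce1, of the central element of the synaptonemal complex, held 1 weak HUM site (chromosome 7, 140778738; DMC1 26.0, H3K4me3 5.87) and Sycp2, of the axis, held 0. A list of symbols searched for telomeres and their attachment to the nuclear envelope matched 22 genes. Of these, Cdk2 and Rtel1 lay in the windows, 236 kb and 411 kb before the last site, and neither held a member.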

How the data were processed

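The authors deposited 1 table for the whole series, with a line per DMC1 site. Per the file headers, its signal values are the DMC1 intensity and the H3K4me3 enrichment estimated by the authors' peak caller, and each deposited fraction is the signal on the B6 homologue over that on both, called the B6 share here. Per the submitters' processing notes, BWA was the aligner and mm10 the build, and 0.7.15 is the BWA version named for the H3K4me3 and MNase libraries. Per the file headers, the raw H3K4me3 reads come from an earlier study, and whether they are those of this series' H3K4me3 library was not settled. How the authors scaled the signals to depth is not described in the sources used here. The MNase library was not analysed here.

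Members, gene lists and alternatives were chosen with earlier results of these data known. Members were taken within 5 Mb of the largest site position of any class on each autosome. Signals were compared as medians and as differences of medians of log2 values with no pseudocount, since 0 sites had a value of zero in either mark. With 1 library per assay, sites are not replicates: no p-value was computed, and directions were counted over 19 autosomes. Shares have exact Clopper-Pearson 95% intervals. Named sites were the 5 strongest of each allele, the 3 most biased to each homologue above the upper DMC1 quartile, the 3 highest and lowest in DMC1 per H3K4me3 among members at or above the median in the summed ranks of both marks, the strongest and outermost of each autosome, those beside the 5 Mb limit, the 5 genes with most members and members in or within 5 kb of listed genes. Other sites of the last 1 Mb were named after their values were seen. Genes came from RefSeq GRCm38.p6, where 36 of 38, 15 of 15 and 22 of 24 listed symbols were matched. The read depth behind each value is unknown. Scripts used python 3.11.15, numpy 2.4.6, pandas 2.3.3 and scipy 1.17.1, and were tested on simulated data. Alternatives changed the window, the sites set against it, the average, the allele, filters on low or repeated values and the autosomes included.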

Additional observations from a re-analysis of the deposited data

Results flagged for a closer look

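The share of members inside protein-coding genes went opposite ways for the alleles. Among CAST sites it was 56.9% at the distal ends and 52.3% in the rest, a difference of 4.60 percentage points. Among HUM sites it was 51.8% at the distal ends and 57.3% in the rest, a difference of -5.50 percentage points. What drew attention is that the sign differs between the alleles under the same contrast; the difference between them was not tested. The exact 95% intervals at the distal ends, which cover counting error only, were 52.7% to 61.0% for CAST and 47.0% to 56.6% for HUM sites.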

How the results depend on the processing

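Each value under an alternative was held against a limit. The limit was the standard error over autosomes or, for shares of sites, the margin of the counting interval on each side of its middle. Of these values, 148 kept their direction and moved by less than the limit, 36 moved further without reversing, and 20 reversed direction. With a window of 2.5 Mb the density ratio was 0.971, the log2 differences were -0.17 (DMC1), 0.24 (H3K4me3) and -0.41 (DMC1 per H3K4me3), the difference in CAST sites was 3.94 percentage points, rho was 0.534 and the difference in DMC1 B6 share 0.106. With 10 Mb they were 1.32, 0.0212, -0.0467, 0.0907, rho 0.649 and 0.0422, and the difference in sites inside genes was -0.0428 points. On autosomes 4, 9 and 13 alone the density ratio was 1.75, the log2 differences 0.13, -0.54 and 0.46, sites inside genes -2.72 points and rho 0.673. Without those 3 autosomes the log2 differences were 0.26 in H3K4me3 and -0.38 in DMC1 per H3K4me3, and PRDM9-independent overlap differed by -0.0474 points. CAST sites alone gave -0.23 in log2 DMC1 and 4.60 points inside genes. HUM sites alone gave -5.50 points inside genes and 0.0513 in B6 share. Without the lowest 10% of sites the log2 differences were -0.17 in DMC1 and -0.27 in DMC1 per H3K4me3. Without repeated H3K4me3 values they were -0.18 in DMC1, -0.0314 in H3K4me3 and -0.26 in their ratio, with 0.509 points for CAST sites and -0.274 inside genes. The median over autosomes gave -0.31 in DMC1 per H3K4me3, -1.52 points in PRDM9-independent overlap and 3.95 inside genes. Leaving out 1 autosome gave -0.25 in DMC1 per H3K4me3 (without 9), 0.354 points for CAST sites (without 11), -0.206 in PRDM9-independent overlap (without 15) and -0.545 inside genes (without 12). Without PRDM9-independent sites rho was 0.660. The excess of B6-only over CAST-only sites, 2.84 points, was 6.55 with limits of 0.2 and 0.8 and 0.133 for H3K4me3, whose B6 share differed by 0.018.

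In the last 1 Mb of the 16 other autosomes, the log2 difference in DMC1 per H3K4me3 was -1.11 over 2 Mb and -1.39 for HUM sites. H3K4me3 differed by 1.27 over 0.5 Mb, 0.66 over 2 Mb and 0.92 for HUM sites, and DMC1 by -0.81 for CAST sites and -0.79 without autosome 10. On autosomes 4, 9 and 13 DMC1 per H3K4me3 differed by 1.18 over 2 Mb, 1.58 between means and 1.49 with UNK and KO sites, and DMC1 by -0.0148 without repeated H3K4me3 values. The cause of these shifts was not tested.

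No paired analysis was possible because each assay has 1 library. Sites are not replicates and share the libraries. Depth is unknown, and a single site's signal or share carries no counting error here. The medians of the last 1 Mb of single autosomes rest on as few as 1 site.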
